A study of Homo sapiens with 6 samples.

Results

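Transcript levels of the subunits of the AP-1 transcription factor were examined in tumors grown in mice from CRL-5889 cells, a long-cultured line derived from a squamous carcinoma of the human lung. The subunits were JUN, JUNB, JUND, FOS, FOSB, FOSL1, FOSL2, ATF3, BATF and BATF3. Every probe set whose platform annotation names exactly 1 of these genes was used, which gave 32 probe sets for 10 genes, out of 18132 genes with a probe set of their own. The fusion group was 3 tumors of CRL-5889 cells transfected with the TRA2B-DNAH5 fusion, which joins a splicing regulator gene to an axonemal dynein gene. The vector group was 3 tumors of the same line transfected with vector. All tumors grew in nude mice, which lack T cells, and were taken at 4 weeks. A frozen piece of each tumor gave its RNA, so each of the 6 tumors has 1 array. The labels call the tumors biological replicates, but do not say which mouse carried each tumor or whether a transfected population was 1 clone. Differences between the transfected populations and the presence of the fusion therefore cannot be told apart.

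AP-1 is a dimer of proteins with a basic region that binds DNA and a leucine zipper that holds the partners together. JUN proteins pair with themselves or with FOS proteins, and FOS proteins need a partner. FOS, FOSB, JUN, JUNB and ATF3 are immediate early genes, transcribed within minutes of a growth signal or a stress, while FOSL1, FOSL2 and JUND respond later or are expressed more evenly. JUN is switched on through kinases of the JNK and ERK pathways. It can raise its own transcription through a site in its promoter that JUN and ATF2 bind as a pair. The collagenase gene MMP1 is a textbook AP-1 target, and AP-1 is known to act on other stromelysin and collagenase genes as well. The subunits were therefore read as possible regulators of MMP1 and MMP10, which both rose in fusion tumors.

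RefSeq promoter sequences (GRCh38.p14) were matched for 8 of the 10 subunits and for MMP10, and not for FOSL1, BATF3 or MMP1. In the 250 bases before each gene's start, 4 motifs were searched on both strands: the AP-1 site TGAGTCA, the cyclic AMP response element TGACGTCA, the variant TGACATCA known from the JUN promoter, and the CArG box bound by serum response factor. No motif overlapped another here. They were present in 4.2%, 1.65%, 2.37% and 1.16% of 35116 promoters of this length. JUN held TGACATCA at -67 to -60, counted from its start, and ATF3 held it at -123 to -116 of the first of its 2 starts. JUND held TGACGTCA at -200 to -193. No match was found at JUNB, FOS, FOSB, FOSL2, BATF, MMP10 or the other ATF3 start, which says only that these letters are not in this window. The promoters of JUN (chr1:58784048-58784297, minus strand) and ATF3 (chr1:212565157-212565406, plus strand) are shown because both hold this motif. That of MMP10 (chr11:102780629-102780878, minus strand) is shown as the matched promoter of a gene that rose. Each is written 5′ to 3′ with the motif in capitals.
JUN: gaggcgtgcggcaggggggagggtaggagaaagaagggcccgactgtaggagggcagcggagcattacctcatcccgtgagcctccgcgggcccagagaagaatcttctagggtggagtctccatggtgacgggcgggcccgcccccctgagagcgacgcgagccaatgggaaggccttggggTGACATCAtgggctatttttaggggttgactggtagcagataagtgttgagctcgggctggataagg
ATF3: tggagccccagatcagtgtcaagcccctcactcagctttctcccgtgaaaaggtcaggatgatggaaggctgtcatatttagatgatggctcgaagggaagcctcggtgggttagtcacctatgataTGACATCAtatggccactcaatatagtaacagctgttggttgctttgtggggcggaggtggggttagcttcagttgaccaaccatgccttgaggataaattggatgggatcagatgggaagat
MMP10: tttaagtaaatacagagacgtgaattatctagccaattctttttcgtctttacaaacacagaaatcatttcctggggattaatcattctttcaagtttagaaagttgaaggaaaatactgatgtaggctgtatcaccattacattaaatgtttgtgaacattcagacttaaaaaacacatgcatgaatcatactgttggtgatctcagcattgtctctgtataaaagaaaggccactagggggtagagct

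The arrays were alike in overall distribution, with medians from 6.27 to 6.39 and correlations across probe sets from 0.989 to 0.997. Vector tumor 1 stood apart. It scored 55.8 on the first principal component (42.4% of the variance) against -14.8 to -2.73 in the other 5 tumors, so results that rest on it are given with and without it. Of the squamous and epithelial markers, DSG3, EPCAM and CDH1 were dimmer than the filter level, a log2 value of 4.94. KRT5 (4.90 to 5.41) and KRT14 (5.51 to 5.90) were only a little above it. KRT18 was between 8.38 and 8.73 in all tumors, while KRT7 (4.92 to 5.27), KRT8 (5.18 to 5.41) and KRT19 (4.84 to 5.42) were close to the filter level. Of the lung lineage markers, NAPSA was 7.26 to 7.75, SFTPB 6.03 to 6.31 and NKX2-1 5.86 to 6.15 over the tumors. SOX2, a squamous lineage factor, was 8.70 to 8.92 in fusion and 9.24 to 10.10 in vector tumors (log2 fold change -0.83, limma adjusted p = 0.369). Without vector tumor 1 its log2 fold change was -1.04 and it was called (limma adjusted p = 0.044). For SOX2 the tumor left out was the vector tumor nearest the fusion tumors, so nothing is read from this call. Probes were designed for human transcripts, and any signal from mouse stroma was not separated from that of the implanted cells.

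JUN was the subunit that differed most between the groups, and it was higher in every fusion tumor. FOSL1 was also higher in every fusion tumor, by a smaller difference, and FOS leaned higher with overlapping groups. The remaining subunits lay within the spread between tumors. Of the 10 genes, 9 passed the filter on dim probe sets. None of the 9 passed adjusted p 0.05 by limma over all 13694 genes tested (0 called, with 1, JUN, at an unadjusted p below 0.05). Among all genes 10 were called, which is 0.073%, and 5.89% had an unadjusted p below 0.05. Of the 9, 7 had a log2 fold change above 0 and 2 below, where 50.8% of all genes were above 0. The median log2 fold change of the 9 was 0.017, beside 0.0020 over all genes. JUN and FOSL1 had all fusion tumors above all vector tumors, which held for 5.94% of all genes, and 0 subunits had all fusion below all vector tumors, which held for 5.74%. In bulk tumor RNA, a difference in the number of cells of a type and a difference in RNA per cell cannot be told apart.

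**Figure D1:**
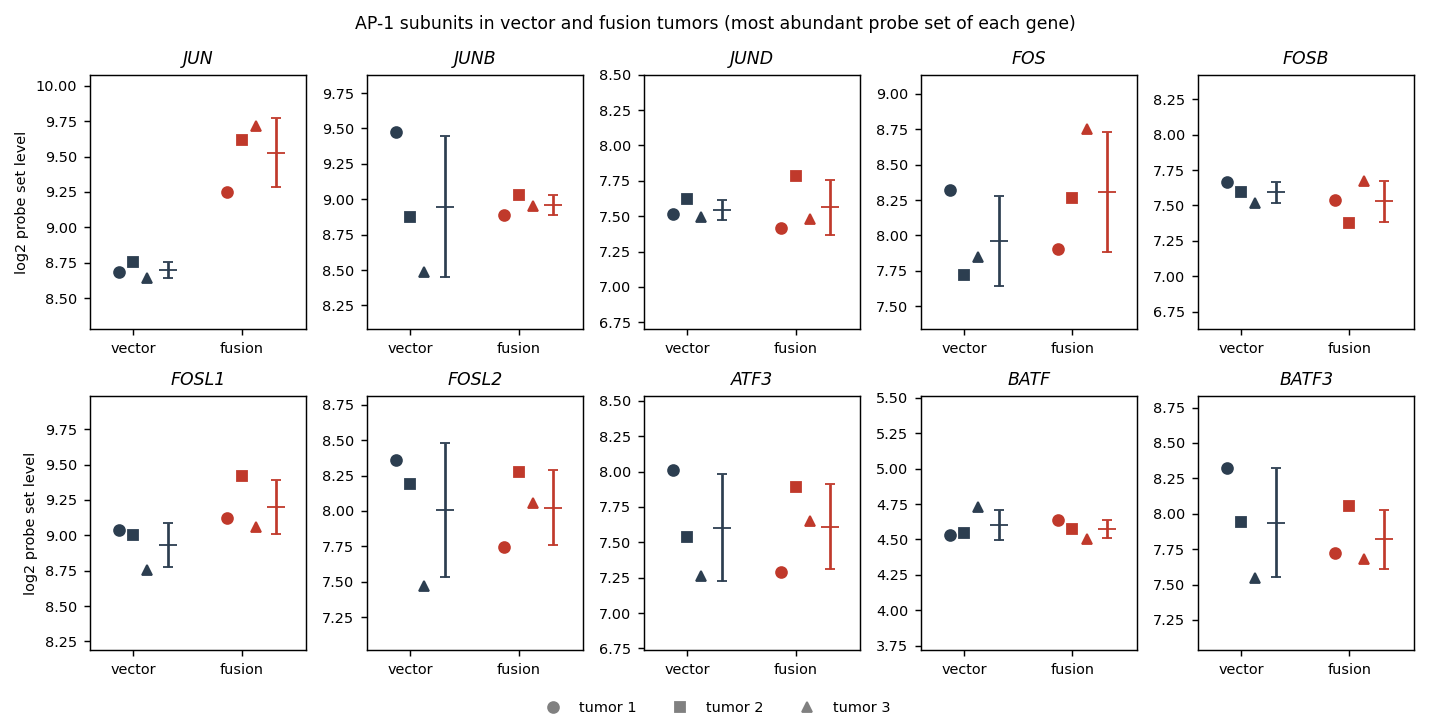
Log2 level of the most abundant probe set of each AP-1 gene (y axis, every panel spanning the same range) in the vector and fusion tumors; each marker is 1 tumor, and the bar at the right of each group is mean ± SD, n = 3. JUN has its fusion tumors at 9.25 to 9.72 and its vector tumors at 8.64 to 8.76, while in JUNB, FOSL2, ATF3 and BATF3 vector tumor 1 is the highest of the 6.

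Among the JUN proteins, JUN itself, the strongest activator of the group, was measured by 4 probe sets. The most abundant (11718394_at) read 9.25, 9.62 and 9.72 in the fusion group (tumors 1, 2 and 3) and 8.69, 8.76 and 8.64 in the vector group. The vector tumors lay close together and below the lowest fusion tumor, which was tumor 1. The fusion mean was 9.53 ± 0.24 and the vector mean 8.70 ± 0.057 (SD, n = 3 each). The difference was 1.78-fold (log2 fold change 0.83, SE 0.13, 95% confidence interval 0.54 to 1.13; limma adjusted p = 0.12), and JUN ranked 18 among the 13694 genes by p. The difference did not pass the threshold, and the exact permutation p was 0.1, the smallest that 3 against 3 tumors allow. The threshold was passed when the 4 probe sets were averaged (limma adjusted p = 0.0436) and with array weights (adjusted p = 0.00485). Array weights gave vector tumor 1 the lowest weight (0.23). These fits called 16 and 140 genes in all, against 10 in the main fit. Across the alternatives tried, JUN had an adjusted p between 0.00485 and 0.592, the highest without fusion tumor 3, and a log2 fold change between 0.74 and 0.97.

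The other 3 JUN probe sets gave the same picture. The probe set 11718395_s_at stood at 8.11, 8.31 and 8.52 in fusion and 7.52, 7.48 and 7.22 in vector tumors. The probe set 11718397_s_at stood at 8.30, 7.88 and 8.12 against 7.40, 7.31 and 6.91. The probe set 11718396_x_at stood at 7.76, 7.96 and 8.09 against 7.40, 7.29 and 7.02. In all 4 the fusion tumors lay above the vector tumors, vector tumor 3 was the lowest of the 6, and the log2 fold change was between 0.70 and 0.91. In the fit over all 49293 probe sets, which called 5 (0.0101%), their limma adjusted p lay between 0.139 and 0.326. All 4, and 1 FOSL1 probe set, had an unadjusted p below 0.05 with a higher level in fusion, as 3.1% of all probe sets did. These probe sets measure 1 gene and are not independent of each other, and the suffixes s and x mark probes that may match related transcripts.

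JUNB, which can restrain JUN as well as activate genes of its own, had 1 probe set. It stood at 8.89, 9.03 and 8.95 in fusion tumors but at 9.47, 8.88 and 8.49 in vector tumors. The vector tumors thus surrounded the fusion tumors, with vector tumor 1 the highest of the 6 and vector tumor 3 the lowest. The log2 fold change was 0.011 (95% confidence interval -0.48 to 0.51). JUND, the subunit expressed most evenly in many tissues, also had 1 probe set. It stood at 7.42, 7.78 and 7.48 in fusion and 7.51, 7.62 and 7.49 in vector tumors. Its groups overlapped and its log2 fold change was 0.018 (95% confidence interval -0.25 to 0.28), an interval that leaves out a difference as large as that measured for JUN.

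**Figure D2:**
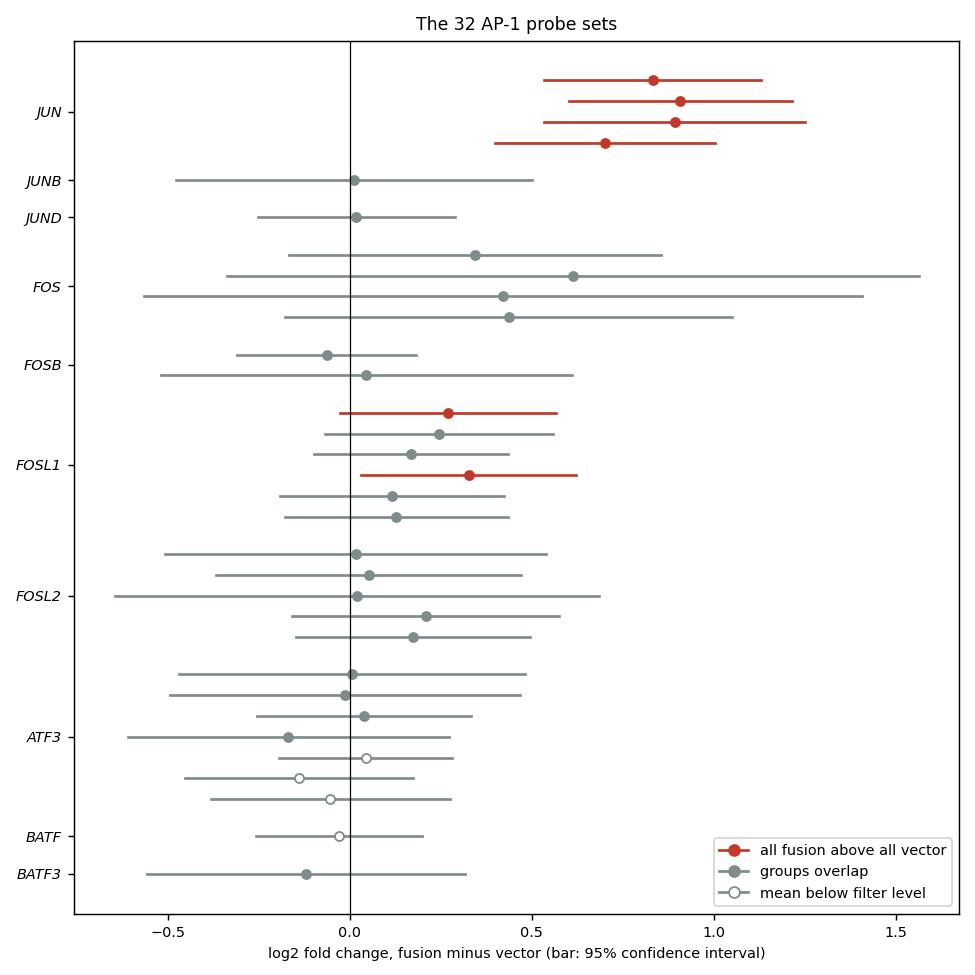
Log2 fold change of each of the 32 AP-1 probe sets, fusion minus vector (x axis), with its 95% confidence interval from limma over all probe sets; within a gene the most abundant probe set is on top. The 4 JUN probe sets lie between 0.70 and 0.91, and 2 of 6 FOSL1 probe sets are the only others with all fusion above all vector tumors.

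Among the FOS proteins, FOS varied widely within both groups. Its most abundant probe set stood at 7.91, 8.26 and 8.75 in fusion and 8.32, 7.72 and 7.84 in vector tumors. Vector tumor 1 lay inside the fusion range, and fusion tumor 1 lay near the other vector tumors. A second FOS probe set spread more widely, at 7.66, 8.64 and 8.80 in fusion and 8.72, 7.37 and 7.17 in vector tumors. The 4 FOS probe sets had log2 fold changes of 0.34 to 0.61, and all 4 had overlapping groups. The most abundant gave 0.34 (SE 0.23, 95% confidence interval -0.17 to 0.86; limma adjusted p = 0.962). Without vector tumor 1, all 4 FOS probe sets had the fusion tumors above the remaining vector tumors. In that fit 11.2% of all probe sets did so. Vector tumor 1 was the highest vector tumor in all 4, so nothing is read from this separation. The log2 fold change of the FOS gene without vector tumor 1 was 0.52 (limma adjusted p = 0.513). Without fusion tumor 3 it was 0.12 and without fusion tumor 1 it was 0.55. With array weights it was 0.72 (limma adjusted p = 0.108), and with the most variable probe set 0.61.

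FOSL1, also called FRA-1, is a FOS protein without the strong activation domain of FOS and is raised in many invasive carcinomas. Its most abundant probe set stood at 9.13, 9.42 and 9.06 in fusion and 9.04, 9.0 and 8.75 in vector tumors. The groups did not overlap, but fusion tumor 3 lay just above vector tumor 1. The log2 fold change was 0.27 (SE 0.13, 95% confidence interval -0.021 to 0.56; limma adjusted p = 0.896). Leaving out 1 tumor gave 0.16 to 0.34, the lowest without fusion tumor 2. All 6 FOSL1 probe sets had log2 fold changes above 0, from 0.12 to 0.33, where 52.8% of all probe sets were above 0. The groups were separated in 2 of the 6, and in 5 of the 6 vector tumor 3 was the lowest tumor.

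FOSL2, or FRA-2, stood at 7.74, 8.27 and 8.06 in fusion tumors and at 8.36, 8.19 and 7.47 in vector tumors. As for JUNB, the lowest and the highest tumor were both vector tumors. Its 5 probe sets had log2 fold changes of 0.017 to 0.21, all with overlapping groups, and vector tumor 3 was the lowest in all 5. FOSB, an immediate early partner of JUN proteins, stood at 7.54, 7.38 and 7.67 in fusion and 7.66, 7.60 and 7.52 in vector tumors. Its groups overlapped, with a log2 fold change of -0.064 (95% confidence interval -0.30 to 0.18). The other FOSB probe set was highest in vector tumor 1, at 7.18, and lay between 6.14 and 6.69 elsewhere.

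The remaining subunits pair with JUN proteins but belong to the ATF and BATF branches. ATF3, a stress-induced factor that often represses, stood at 7.29, 7.89 and 7.65 in fusion and 8.01, 7.54 and 7.26 in vector tumors. Its log2 fold change was 0.0071 (95% confidence interval -0.47 to 0.49). Its 7 probe sets gave -0.17 to 0.045, with 3 above 0 and 4 below, and in 5 of them vector tumor 1 was the highest tumor. BATF3, a partner of JUN in dendritic cells, stood at 7.72, 8.06 and 7.68 in fusion and 8.32, 7.94 and 7.55 in vector tumors. Its groups overlapped, with a log2 fold change of -0.12 (95% confidence interval -0.56 to 0.32). BATF, which acts in lymphocytes, was dim. Its single probe set lay between 4.51 and 4.73 in all 6 tumors, below the filter level, so it was not among the 9 genes tested.

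Several subunits other than JUN were highest in vector tumor 1. Of the 28 probe sets of these subunits, 12 were highest in vector tumor 1, where 22.7% of all probe sets were, and 2 had all fusion above all vector tumors. Other immediate early genes, a list of 20 tested genes that includes EGR1, had their highest value in vector tumor 1 in 14 of 20 cases, where 27.2% of all genes did. The mean log2 level of this list was 8.26, 8.66 and 8.54 in the fusion group and 8.94, 8.31 and 8.12 in the vector group, each in the order of tumors 1, 2 and 3. KLF6, the gene of this list with the smallest p, was instead lowest in vector tumor 1. It stood at 11.78, 11.52 and 11.56 in fusion and 10.86, 11.40 and 11.45 in vector tumors (log2 fold change 0.38, limma adjusted p = 0.829). EGR1, a growth factor response regulator, stood at 9.08, 9.25 and 9.53 in fusion and 10.12, 8.02 and 8.12 in vector tumors. EGR1 was named after its values were seen. JUNB, FOSL2, ATF3 and BATF3 were likewise highest in vector tumor 1, whereas none of the 4 JUN probe sets was. Vector tumor 1 was still the highest of the vector tumors in 3 of the 4 JUN probe sets.

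**Figure D3:**
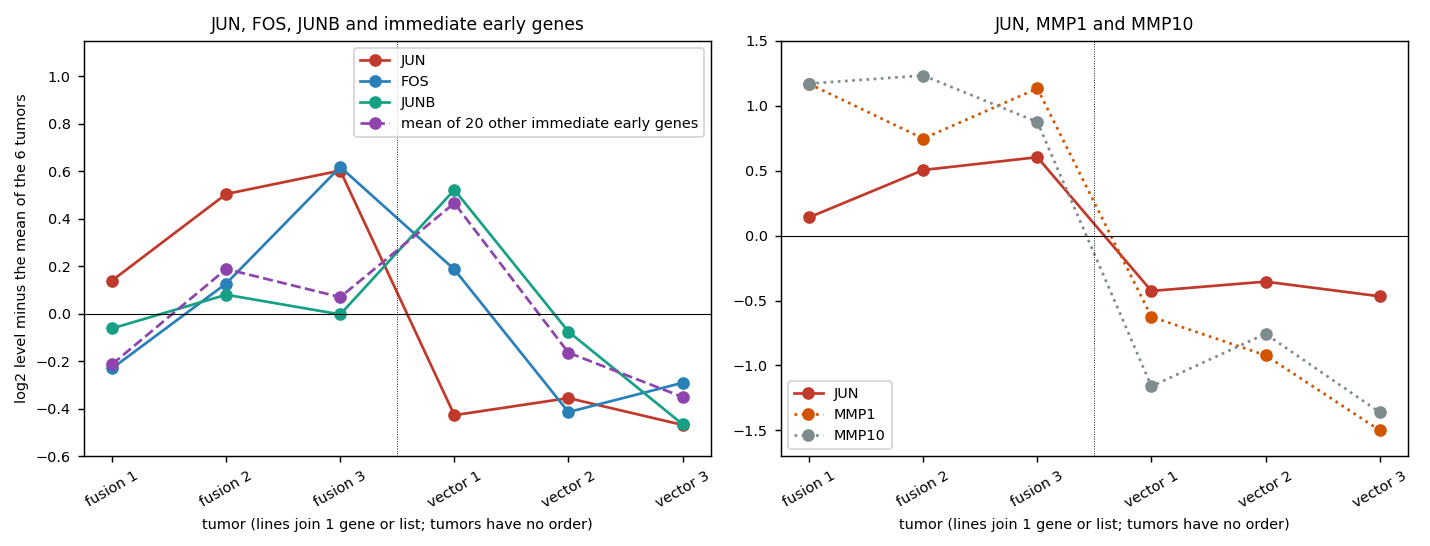
Log2 level minus the mean of the 6 tumors (y axis) in each tumor (x axis); left, JUN, FOS, JUNB and the mean of 20 other immediate early genes, right, JUN with MMP1 and MMP10. Vector tumor 1 is the highest tumor for JUNB and the immediate early mean but not for JUN, MMP1 or MMP10, which separate the groups.

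Leaving out 1 tumor moved the subunits unequally. Without vector tumor 1, 8 of the 9 tested subunits had a log2 fold change above 0, where 49% of all genes did, and their median was 0.21. JUN, FOS and FOSL1 then had an unadjusted limma p below 0.05, where 4.42% of all genes had one and a higher level in fusion, but none passed (0 called; lowest adjusted p = 0.089, for JUN). Of the 28 probe sets other than JUN, 11 then had all fusion above the remaining vector tumors, where 11.2% of all probe sets did. Vector tumor 1 was the highest tumor in 12 of these 28, so nothing is read from this count or from the gene counts without this tumor. Without vector tumor 3, 3 of the 9 were above 0 and the median was -0.10, where 51.2% of all genes were above 0 with a median of 0.0044. Vector tumor 3 was the lowest tumor in all 4 JUN, 5 of 6 FOSL1 and all 5 FOSL2 probe sets, so nothing is read from this count or median. JUN stayed between 0.74 and 0.97 throughout. Without vector tumor 1, 6 of the 20 other immediate early genes had an unadjusted p below 0.05 and were higher in fusion. The 1 that passed was EGR1 (log2 fold change 1.21, SE 0.13, limma adjusted p = 0.0207), in a fit that called 37 of 13694 genes. The tumor left out is the one where 14 of the 20, EGR1 among them, were highest, so nothing is read from this call or from the 6.

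**Figure D4:**
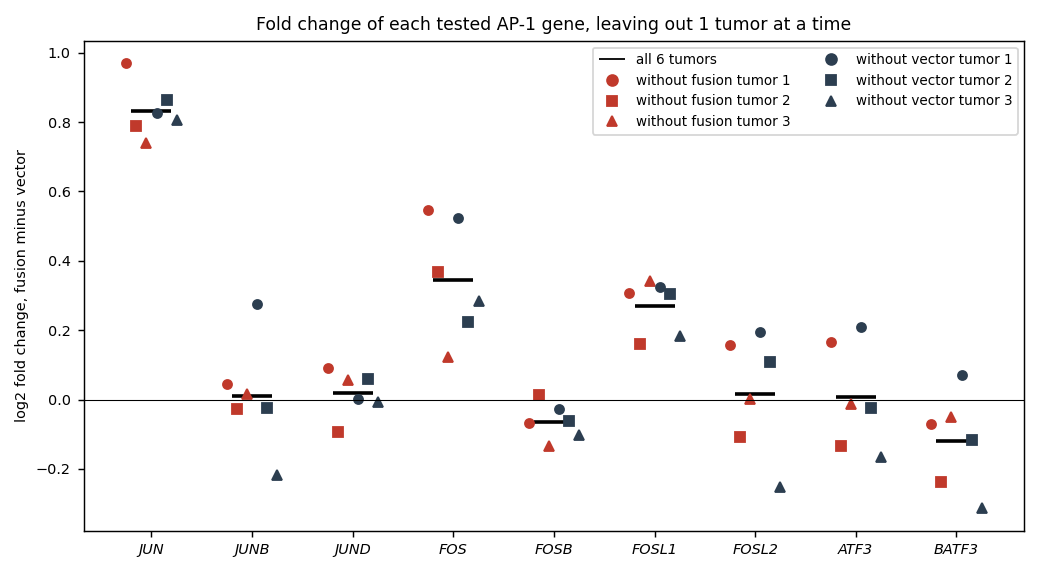
Log2 fold change, fusion minus vector (y axis), of the 9 tested AP-1 genes with all 6 tumors (black bar) and with each tumor left out in turn (markers). JUN keeps a fold change of 0.74 to 0.97, FOS runs from 0.12 to 0.55, and JUNB from -0.22 to 0.28.

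MMP1 rose 4.09-fold in fusion tumors, and MMP10, which was dim in vector tumors, also rose. MMP1, the interstitial collagenase, stood at 10.92, 10.50 and 10.89 in fusion and 9.13, 8.83 and 8.26 in vector tumors (log2 fold change 2.03, SE 0.22, limma adjusted p = 0.0241). MMP10, stromelysin-2, stood at 7.14, 7.21 and 6.85 in fusion and 4.81, 5.22 and 4.61 in vector tumors (log2 fold change 2.18, SE 0.17, limma adjusted p = 0.00629). The vector mean of MMP10, 4.88, is below the filter level of 4.94, so the gene entered the test through its fusion values and the size of its fold is uncertain. The MMP1 call ended without vector tumor 2 or without any 1 of the fusion tumors (adjusted p = 0.0895 to 0.226), and the MMP10 call ended without fusion tumor 1 (adjusted p = 0.074). Both genes and JUN separated the groups. Because the tumors form 2 clusters for all 3 genes, no correlation over the 6 tumors was read, and 3 tumors within a group are too few for one. The order of tumors within a group differed between probe sets of JUN and between those of MMP1, so it was not read. The dependence of MMP1 or MMP10 on JUN was not tested.

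Other proteins of the bZIP class, several of which pair with AP-1 subunits, had no member called among 17 tested (median log2 fold change 0.029). ATF7 and CREB5 had the smallest p. ATF7, a close relative of the JUN partner ATF2, stood at 7.39, 7.36 and 7.48 in fusion and 7.08, 6.91 and 6.78 in vector tumors (log2 fold change 0.49, SE 0.10, limma adjusted p = 0.309). CREB5, another relative of ATF2, stood at 7.08, 6.07 and 6.02 in fusion and 5.45, 5.34 and 5.54 in vector tumors. Its log2 fold change was 0.95 (SE 0.25, limma adjusted p = 0.457), and fusion tumor 1 was well above the others. Both had all fusion above all vector tumors, as 5.94% of all genes did. NRL and MAF, the next by p, had overlapping groups with log2 fold changes of -0.27 and 0.29.

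Kinases and regulators upstream of AP-1 were spread evenly about 0. Of 25 tested, 12 were above 0 and 13 below, with a median of -0.0040 and 0 called by limma. At an unadjusted p below 0.05, 3 were higher and 0 lower, where 3.16% and 2.73% of all genes were. PRKCA, a protein kinase C that phorbol esters activate, stood at 10.49, 10.52 and 10.48 in fusion and 9.91, 10.23 and 9.88 in vector tumors (log2 fold change 0.49, SE 0.11, limma adjusted p = 0.357). RPS6KA5, or MSK1, a kinase that helps induce immediate early genes, had a log2 fold change of 0.32. ELK3, a partner of serum response factor, had 0.25. FBXW7, which marks JUN protein for degradation, had 0.34 with overlapping groups. Of 11 feedback genes induced by ERK, 9 were above 0 and 2 below, with a median of 0.083 and 0 called by limma (2 at an unadjusted p below 0.05). Over all genes 50.8% were above 0 and the median was 0.0020. The phosphatases DUSP5 and DUSP6 had 0.82 (SE 0.20, limma adjusted p = 0.376) and 0.76 (SE 0.24, adjusted p = 0.614). Without vector tumor 1, DUSP5 had 1.03 and was called (adjusted p = 0.044), and DUSP6 had 0.47 (adjusted p = 0.339). For DUSP5 the tumor left out was the vector tumor nearest the fusion tumors, so nothing is read from this call. DUSP4 and SPRY1 had -0.14 and -0.11. Activity of these kinases was not measured.

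Of 20 tested genes known as AP-1 targets, 13 were above 0 and 7 below, with a median log2 fold change of 0.14. Over all genes 50.8% were above 0 and the median was 0.0020. MMP1 and MMP10 were the 2 called higher, beside 0.0584% of all genes, and 0 were called lower. Both were put in the list because they rose, so nothing is read from that count or from the other counts and the median that include them. With them, 5 of the 20 had all fusion above all vector tumors, beside 5.94% of all genes. The other 3 were TIMP1, IL6 and VIM. TIMP1, an inhibitor of metalloproteinases, stood at 11.46, 10.72 and 11.45 in fusion and 10.56, 10.57 and 10.33 in vector tumors (log2 fold change 0.72, SE 0.20, limma adjusted p = 0.462). PLAUR, the urokinase receptor, had 0.52 (SE 0.25) with overlapping groups. MMP3, CXCL8, PTGS2, IVL and SPRR1B, also in this list, were below the filter level and not tested.

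The genes whose tumor by tumor pattern was most like that of JUN were NAV3, SAMD9, ZMYM6, RGS2 and IL12A. Likeness was the root mean square difference of the log2 values over the 6 tumors, each gene first centred on its own mean. It was 0.084 for NAV3 and between 0.10 and 0.14 for the other 4. NAV3, which binds microtubule ends, stood at 9.55, 10.01 and 9.87 in fusion and 8.98, 9.17 and 8.97 in vector tumors. Its groups did not overlap, but JUN separates the groups and NAV3 was chosen for likeness to JUN, so nothing is read from this. SAMD9 and IL12A had vector means of 4.68 and 4.92, below the filter level, and entered through their fusion values. Likeness was taken to the most abundant JUN probe set, and the other 3 order the tumors within a group differently.

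No marker of a host cell type was called by limma, but some had groups that did not overlap. Of the 7 fibroblast markers tested, 4 had all fusion above all vector tumors and 1 all below, where 5.94% and 5.74% of all genes did. FAP, a protease of activated fibroblasts, had a log2 fold change of 0.91 (limma adjusted p = 0.202), and COL1A1, a collagen chain, had 0.65 (adjusted p = 0.593). FBN1, a microfibril protein, went the other way with -0.50 (adjusted p = 0.514), and PDGFRB had 0.019. The summed level of the 9 fibroblast markers was 11.39 to 11.48 in fusion and 10.98 to 11.34 in vector tumors, with DCN and LUM below the filter level. This sum is mostly THY1, the most abundant of them, at 10.84 to 11.03 in fusion and 10.36 to 10.71 in vector tumors. The summed level of 9 leukocyte markers was 9.14 to 9.37 in fusion and 8.80 to 8.85 in vector tumors. CD68, a lysosomal protein of macrophages, was the most abundant of them and had a log2 fold change of 0.80 (limma adjusted p = 0.112). CSF1R had 0.17, while ITGAM and CD3E were near 0 with 0.020 and 0.024. PTPRC, CD14, LYZ, S100A8 and S100A9 were below the filter level, with log2 fold changes of -0.35 to -0.017. All 5 muscle markers tested were highest in vector tumor 1, as 27.2% of all genes were. ACTA1, skeletal muscle actin, was at 8.96 there, 8.90 in fusion tumor 2 and 6.92 in fusion tumor 1, and its groups overlapped. The 4 adipocyte markers tested all had log2 fold changes below 0 (median -0.30), with FABP4 and LEP below the filter level. PPARG, the one with the smallest p, had a fusion mean of 4.90, also below it, and entered through its vector values. Endothelial markers overlapped between the groups in summed level, at 8.76 to 8.92 in fusion and 8.68 to 8.93 in vector tumors. The part of these cells in the AP-1 values was not tested.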

How the data were processed

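The authors deposited log2 probe set values as 1 table, with each array in its own column. That they are log2 was inferred from their range. How background, normalization and summarisation were handled is not given in the sources used here. Of 49293 probe sets, 44988 named 1 gene by the platform annotation, 1832 several and 2473 none. Each of 18132 genes was represented by its most abundant probe set. A gene entered the test if its mean reached the 30th percentile over probe sets, a log2 value of 4.94, which 13694 genes did. The group difference was tested by limma 3.58.1 (lmFit and eBayes, two-sided, R 4.3.3), with Benjamini-Hochberg adjustment over all genes and a threshold of 0.05. A second fit used every probe set without a filter. Precision is limited by having 3 arrays a group, and no detection calls were used. P-values measure the spread between these tumors.

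The members and the 14 gene lists were chosen with earlier results of these data known. DUSP1 and SRF each stand in 2 lists. The genes planned to be named were all subunits, MMP1 and MMP10, up to 4 genes with the smallest p from each other list, and the 5 genes most like the subunit with the smallest p. Not all of these are printed. Some other list members, such as PDGFRB, SPRY1, IL6, VIM and KRT14, are named outside this rule. EGR1 was added after its values were seen. Gene symbols follow the platform annotation, and 44961 probe sets matched RefSeq (GRCh38.p14), with 0 symbols changed. The model was tested on simulated data. Same-numbered fusion and vector tumors had deviations from their group means that correlated at 0.097, 0.17 and 0.051 across genes, and no label ties them, so they were not paired. Plots were made in matplotlib 3.10.9 under Python 3.11.15.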

Additional observations from a re-analysis of the deposited data

How the results depend on the processing

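Settings were varied in the filter, the choice of probe set, the scaling, the variance model, array weights, the replicate block, the threshold and the tumors used. The count of AP-1 genes called was 0 as reported (1 at an unadjusted limma p below 0.05) and in 14 of 16 alternatives. It was 1, JUN, with the mean of probe sets and 1, again JUN, with array weights. The count over all genes, 10 as reported, was 1 with the filter at the 50th percentile, 16 with the mean of probe sets, 6 with the most variable probe set and 140 with array weights, and ran from 0 to 37 when 1 tumor was left out. The count over all probe sets, 5 as reported, was 8 with quantile normalization, 11 with median centring, 79 with array weights and 23 at adjusted p below 0.1, and ran from 0 to 15 when 1 tumor was left out. It was 0 without any 1 of the fusion tumors or without vector tumor 3, with 1835 to 2492 probe sets at an unadjusted limma p below 0.05. With the replicate number as a block, 8 probe sets, 8 genes and 0 AP-1 genes (2 at an unadjusted p below 0.05) were called.

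JUN, FOS, FOSL1, MMP1 and MMP10 kept their direction in every alternative run. MMP10 could not be fitted with the filter at the 50th percentile, which left it out. MMP1 also missed the threshold there (adjusted p = 0.0508). Subunits near 0 changed sign. With quantile normalization the log2 fold change was -0.0015 for JUNB, -0.012 for JUND, -0.0036 for FOSL2 and -0.013 for ATF3, and with median centring it was -0.018, -0.011, -0.012 and -0.022. With array weights it was -0.032 for JUND and 0.0064 for FOSB. With the most variable probe set it was 0.046 for FOSB and -0.013 for ATF3, and with the mean of probe sets -0.040 for ATF3. Leaving out 1 tumor gave -0.22 to 0.28 for JUNB, -0.093 to 0.090 for JUND, -0.14 to 0.012 for FOSB, -0.25 to 0.19 for FOSL2, -0.16 to 0.21 for ATF3 and -0.31 to 0.072 for BATF3. The median over the tested subunits, added after seeing the data, ran from -0.10 to 0.21. The cause of these changes was not tested.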

Other observations

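Heat shock genes, which can be induced together with immediate early genes under stress, mostly had log2 fold changes below 0, and 0 were called by limma. Of 10 tested, 9 had a log2 fold change below 0 and 1 above, with a median of -0.15 beside 0.0020 over all genes. At an unadjusted p below 0.05, 2 were lower and 1 was higher, where 2.73% and 3.16% of all genes were. HSPA1B, an inducible HSP70 chaperone, averaged 10.55 ± 0.096 in the fusion group and 10.93 ± 0.27 in the vector group (SD, n = 3 tumors each), and its cochaperone DNAJB1 averaged 9.55 ± 0.21 and 9.93 ± 0.23. Both had overlapping groups. BAG3, which couples HSP70 to protein clearance, went the other way, averaging 11.60 ± 0.11 against 11.25 ± 0.090. It had all fusion above all vector tumors, as 5.94% of all genes did. HSPH1 (log2 fold change -0.24) had all fusion below all vector tumors, as 5.74% of all genes did. HSPA1B has a near-identical neighbour, HSPA1A, so its probe set may measure both.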
